A study of Mus musculus with 2 samples.

Results

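The replication-dependent histone genes encode the linker histone H1 and the core histones H2A, H2B, H3 and H4 in many near-identical copies, most of them gathered in clusters. They were taken as the protein-coding genes of GENCODE M21 whose symbol starts with Hist1h, Hist2h, Hist3h or Hist4, which gave 67 of 21938 protein-coding genes. Of these, 6 encode H1, 18 H2A, 18 H2B, 12 H3 and 13 H4. The Hist1 cluster on chromosome 13 holds 54 of them, Hist2 on chromosome 3 holds 10, Hist3 on chromosome 11 holds 2, and Hist4h4 stands alone on chromosome 6.

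Chromatin accessibility was measured by DNase-seq in heart tissue of male B6CASTF1/J mice aged 14 days. In this assay DNase I cuts DNA in nuclei where it is not protected. The mice are F1 hybrids of the C57BL/6J and CAST/EiJ strains, and the study had 1 group with 2 biological replicates and no contrast. The label of replicate 1 names 3 males, that of replicate 2 gives no number, and pooling of hearts is not stated. Heart tissue mixes cell types, so fewer cells with an accessible promoter and less access per cell cannot be told apart.

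In dividing cells these genes are switched on together as DNA is copied, and their mRNAs end in a stem-loop in place of a poly(A) tail. Transcription is driven by short promoters next to the start, with a CCAAT box and a TATA box in many of them, an octamer bound by Pou2f1 in H2B genes, and in H4 genes a stretch called site II that the zinc finger protein Hinfp binds. H2A and H2B genes often lie head to head with a shared promoter, and the coactivator Npat acts at the clusters in nuclear histone locus bodies. Many heart muscle cells leave the cell cycle in the weeks after birth.

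A gene was called open where each replicate had a peak within 1 kb of an annotated start, each peak being given to the closest start, and its value was the signal of its highest peak. The authors scaled this signal by read depth, and it has no further unit. Depth is unknown, as the sources used here give no read totals. Replicate 1 held 143122 peaks and 350009 footprints and replicate 2 held 125118 and 335568, where a footprint is a short stretch protected from cleavage inside accessible DNA. Promoters of the heart muscle genes chosen as markers were open in 6 of 6 cases, beside 67.4% of all protein-coding genes. Their medians were 2.36 and 1.69 in replicates 1 and 2, beside 6.77 and 5.85 over all open genes, and none lay above the latter. The highest were Ryr2, the calcium release channel, at 3.10 and 2.77, Actc1, cardiac actin, at 3.20 and 2.32, and Tnnt2, cardiac troponin T, at 2.50 and 1.68. None of 5 hepatocyte markers (among them Alb, Apoa1 and Ttr) or 4 erythroid markers (among them Gata1, Klf1 and Alas2) was open. Of 4 leukocyte markers Spi1 alone was open, at 1.45 and 1.48, while Ptprc, Cd3e and Cd79a had no peak. The 10 markers of cycling cells were open in 10 of 10 cases, with medians of 12.5 and 8.69, and led by Ccna2 (16.5 ± 2.30), Mcm5 (16.4 ± 4.90) and Rrm2 (13.3 ± 0.83, each the mean ± SD of n = 2). An open promoter is not a count of dividing cells, and RNA was not analysed here.

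The promoters that the results turn on are shown 5' to 3' along the gene as the bases just before the annotated start, read from GRCm38.p6, the assembly of mm10. They are those of the open H1, H3 and H4 genes with the highest mean signal, the DNA between the head-to-head H2A and H2B genes with the highest mean over both, and the germ cell gene Hist1h1t, which had no peak. Capitals mark matches on either strand to the CCAAT box, the TATA element TATAAA, the octamer ATTTGCAT, the H1 box AAACACA, the core GGTCCG of H4 site II, the E2F element TTTNGCGC and the GC box GGGCGG.
Hist1h1e, H1 (chr13:23622559-23622808, minus strand): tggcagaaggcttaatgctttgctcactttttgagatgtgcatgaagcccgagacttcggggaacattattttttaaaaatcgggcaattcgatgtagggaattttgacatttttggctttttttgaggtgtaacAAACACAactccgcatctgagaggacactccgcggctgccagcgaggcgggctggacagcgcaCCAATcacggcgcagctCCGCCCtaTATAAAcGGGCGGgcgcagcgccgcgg
Hist1h3e, H3 (chr13:23562370-23562619, minus strand): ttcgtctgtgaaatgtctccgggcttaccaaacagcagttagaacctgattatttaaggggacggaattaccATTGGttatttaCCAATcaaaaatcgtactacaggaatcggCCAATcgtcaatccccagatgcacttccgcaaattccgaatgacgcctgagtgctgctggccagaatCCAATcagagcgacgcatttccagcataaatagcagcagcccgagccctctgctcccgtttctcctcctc
Hist1h4c, H4 (chr13:23698455-23698704, minus strand): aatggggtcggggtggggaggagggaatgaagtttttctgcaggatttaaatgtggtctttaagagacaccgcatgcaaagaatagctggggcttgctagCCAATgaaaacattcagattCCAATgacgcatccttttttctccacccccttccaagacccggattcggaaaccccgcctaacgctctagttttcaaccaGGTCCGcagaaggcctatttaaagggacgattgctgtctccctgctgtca
Hist2h2ac and Hist2h2be, H2A and H2B (chr3:96220881-96221118, plus strand, Hist2h2ac reading leftward): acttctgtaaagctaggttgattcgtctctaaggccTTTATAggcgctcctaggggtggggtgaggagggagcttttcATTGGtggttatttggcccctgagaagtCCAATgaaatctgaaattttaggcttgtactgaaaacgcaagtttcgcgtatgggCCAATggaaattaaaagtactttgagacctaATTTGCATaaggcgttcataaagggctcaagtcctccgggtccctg
Hist1h1t, germ cell H1 (chr13:23695564-23695813, plus strand): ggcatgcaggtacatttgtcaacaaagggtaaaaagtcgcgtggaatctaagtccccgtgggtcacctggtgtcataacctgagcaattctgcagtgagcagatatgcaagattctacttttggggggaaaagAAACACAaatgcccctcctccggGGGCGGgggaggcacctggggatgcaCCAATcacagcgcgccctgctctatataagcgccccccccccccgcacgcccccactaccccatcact

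Most histone promoters were open in the heart, though at a signal below that of other open genes for every class but H4. Of the 67 genes, 53 (79.1%) had a peak in each replicate, beside 67.4% of all protein-coding genes. By class, 13 of 13 H4 genes, 11 of 12 H3 genes, 13 of 18 H2A genes, 12 of 18 H2B genes and 4 of 6 H1 genes were open. Among open genes the median signal was 3.15 in replicate 1 and 2.08 in replicate 2 for the histone genes, and 6.77 and 5.85 for all 14780 open genes. H4 genes had medians of 10.3 and 6.99, H1 genes 6.28 and 4.94, H3 genes 3.01 and 2.08, H2A genes 2.48 and 1.99, and H2B genes 1.39 and 1.37. Only 11 of the 53 open histone genes lay above the median of all open genes in each replicate, and 7 of these encode H4, 2 H1, 1 H2A, 1 H3 and none H2B. Values within H4, from 0.553 to 18.9 in replicate 1, overlapped those of every other class. With 1 group there was no test between conditions, and genes of a class are not replicates.

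**Figure D1:**
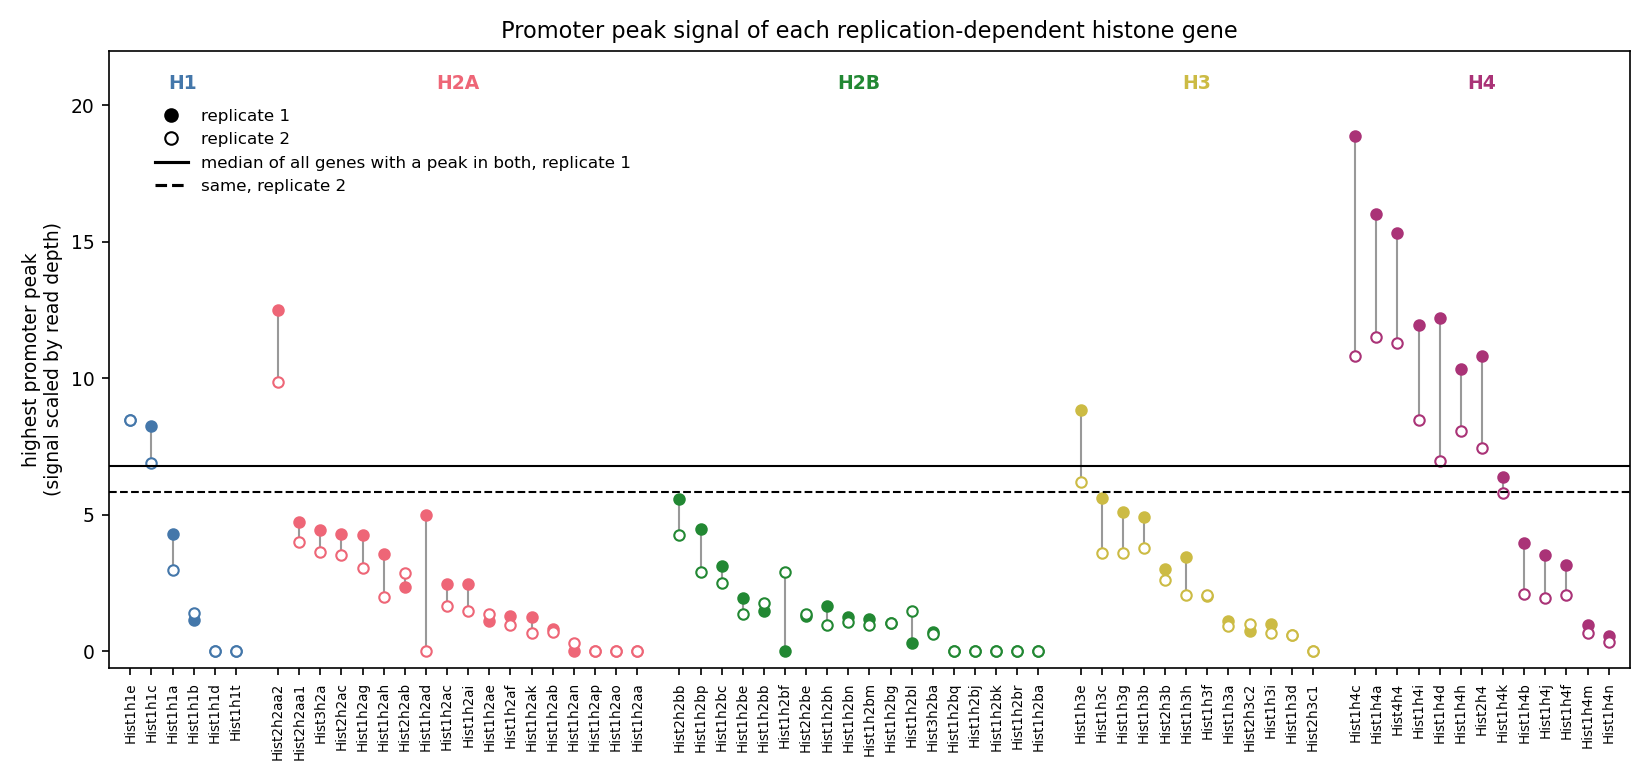
Signal of the highest promoter peak (vertical axis, scaled by read depth by the authors) for each of the 67 histone genes, grouped by class and ordered by mean. Filled circles are replicate 1, open circles replicate 2, grey lines join the values of a gene, and horizontal lines are the medians of all open genes (6.77 and 5.85). Of the 13 H4 genes 7 lie above both lines, and no H2B gene does.

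H4 genes carried the highest promoter signals of the set. Hist1h4c, on the minus strand at chr13:23697635-23698454, reached 18.9 in replicate 1 and 10.8 in replicate 2. Hist1h4a had 16.0 and 11.5, and Hist4h4, the copy outside the clusters, had 15.3 and 11.3. Hist1h4i (11.95 and 8.49), Hist1h4d (12.2 and 6.99), Hist1h4h (10.3 and 8.08) and Hist2h4 (10.8 and 7.47) also stood above the median of open genes in each replicate. Hist1h4k, with 6.38 and 5.78, fell just under it. Signals then dropped to 3.96 and 2.11 at Hist1h4b, 3.52 and 1.97 at Hist1h4j, and 3.15 and 2.07 at Hist1h4f. The lowest were Hist1h4m, at 0.979 and 0.668, and Hist1h4n, at 0.553 and 0.328. These last 2 genes lie in repeated sequence, and without them H4 genes ran from 3.15 to 18.9 in replicate 1 and from 1.97 to 11.5 in replicate 2. The order of the first 3 differed between replicates, and their values lay within the spread of each other. At Hist1h4j the highest peak had its middle at -773.5 bp from the start in replicate 1, and the peak at -73.5 bp had 2.59 and 1.93.

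All 13 H4 genes had the higher value in replicate 1, with a median log2 ratio of replicate 1 to replicate 2 of 0.55. That ratio was 0.39 over the 53 open histone genes, of which 44 were higher in replicate 1. Over all 14780 open genes it was 0.25 (SD 0.34 across genes), and 11824 of them were higher in replicate 1. The 10 markers of cycling cells had a median log2 ratio of 0.51 and were higher in replicate 1 in 10 of 10 cases, and their part in the H4 difference was not tested. Across the open histone genes the ratio ran from -2.32 to 0.91, the lowest being that of Hist1h2bl. That lowest ratio depends on how peaks were given to genes. In replicate 1 the peak between Hist1h2bl and Hist1h2ai counted for Hist1h2ai alone, and in replicate 2 a wider peak counted for both. Where a peak counted for each window it touched, Hist1h2bl had 2.47 and 1.49, so it was higher in replicate 1.

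Linker histone H1 binds the DNA that enters and leaves the nucleosome. Hist1h1e had 8.48 in each replicate and Hist1h1c had 8.26 and 6.89, both above the median of open genes. At Hist1h1c a second peak lay downstream of the start, and in replicate 1 it, not the peak at the start (7.63), gave the value, with its middle 972.5 bp from the start. In replicate 2 the peak at the start had 6.89 and the downstream one 6.18. Hist1h1a had 4.29 and 2.99 and Hist1h1b 1.16 and 1.41, so the open H1 genes spanned a wide range with few members. Hist1h1d had no peak, but its annotated start lies 1828 bp before its start codon. Within 1 kb of the start codon it had 2.09 and 1.83. By that rule, added after the data were seen, 54 histone genes were open, beside 50.2% of all protein-coding genes.

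Among H3 genes, whose product pairs with H4 in the nucleosome core, Hist1h3e was highest with 8.83 and 6.19. Hist1h3c followed with 5.62 and 3.61 and Hist1h3g with 5.12 and 3.61. The lowest open genes were Hist1h3d, with 0.610 and 0.609, Hist1h3i, with 1.00 and 0.668, and Hist2h3c2, with 0.738 and 1.01. Hist1h3a had 1.11 and 0.937 from peaks closest to its own start, and its window also reached the peak of Hist1h4a, which had 16.0 and 11.5. Its value thus depends on which gene that peak is given to.

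Genes of H2A, which forms a dimer with H2B, were mostly at low signal. Hist2h2aa2 was the exception, with 12.5 and 9.88, and Hist2h2aa1, a near-identical copy, had 4.74 and 4.02. How the reads were divided between these copies is uncertain. Hist3h2a had 4.44 and 3.65, from a peak that counted for the neighbouring gene Trim17 as well. The lowest open H2A genes were Hist1h2ab (0.837 and 0.722), Hist1h2ak (1.24 and 0.674) and Hist1h2af (1.28 and 0.955). H2B genes had the lowest class medians. Hist2h2bb led them with 5.57 and 4.28, ahead of Hist1h2bp with 4.47 and 2.90 and Hist1h2bc with 3.11 and 2.50. At the low end stood Hist3h2ba (0.709 and 0.639), Hist1h2bl (0.298 and 1.49) and Hist1h2bg (1.04 and 1.02).

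Values of H2A and H2B genes depended on how a shared peak was counted, since 24 of them lie in 12 head-to-head pairs. Their starts were 176 to 306 bp apart, with a median of 259.5 bp, and the median peak width was 200 bp. In 9 pairs both replicates had a peak between the starts, and in the other 3 neither replicate had a peak nearby. Over those 9 pairs the highest peak between the starts had medians of 3.55 and 2.50, and ranged from 1.04 to 4.98 and from 1.02 to 3.53. Even so counted, each pair stayed below the medians of all open genes. A single peak covered both starts in 1 pair in each replicate, and both genes of a pair were open by the closest start in 5 pairs. Hist1h2bk and Hist1h2bj had no peak of their own, because the peak they share with Hist1h2ah (3.55 and 1.99) and Hist1h2ag (4.26 and 3.05) lay closer to the H2A start.

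The 3 genes with a peak in 1 replicate alone also belong to pairs. The shared peak of Hist1h2bf and Hist1h2ad fell to Hist1h2ad in replicate 1, with 4.98, and to Hist1h2bf in replicate 2, with 2.91. Hist1h2an had 0.292 in replicate 2 alone, while the peak beside it counted for Hist1h2bp. Where a peak counted for each gene whose window it touched, 58 of the 67 genes were open, beside 68.8% of all protein-coding genes, and H2A and H2B each had 15 of 18. Medians among open genes were then 4.26 and 2.90 for H2A and 2.47 and 1.77 for H2B, still under the medians of all open genes. H3 genes, of which 11 were open by either rule, had medians of 4.93 and 3.61 when each touched window counted, beside 3.01 and 2.08. The counts and medians of H1 and H4 were the same by either rule.

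**Figure D2:**
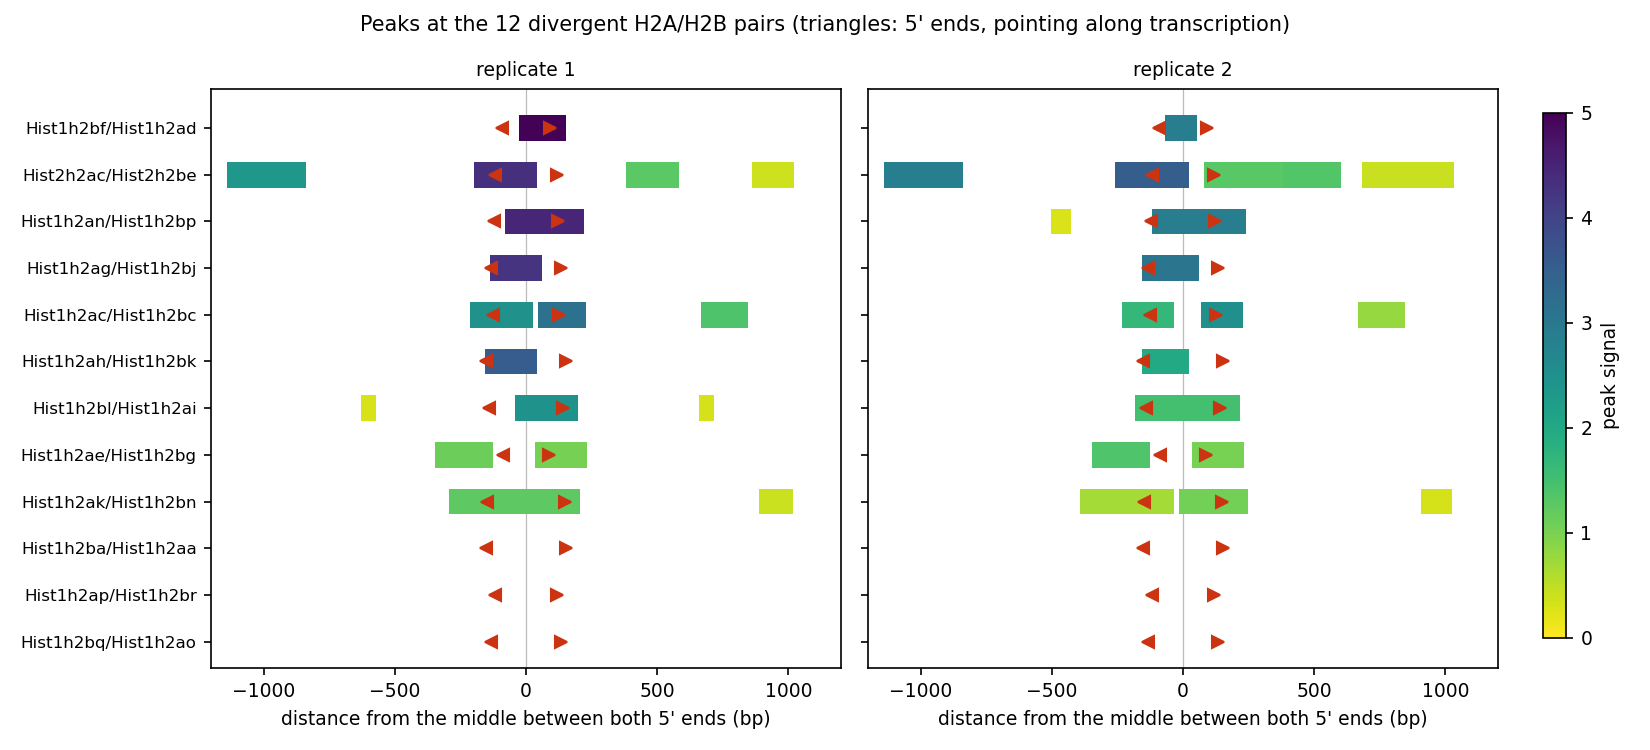
Peaks (bars, shaded by signal) at the 12 head-to-head H2A and H2B pairs in each replicate, by distance in bp from the middle between both 5' ends. Triangles mark the 5' ends and point along transcription. In 9 pairs a peak lies between the starts in both replicates, and the lowest 3 pairs have none.

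Of the 11 genes with no peak in either replicate, 2 shared a peak given to the paired gene and 1, Hist1h1d, had its peaks nearer to the start codon. Another 3 are genes known from the male germ line. Hist1h1t encodes the H1 of spermatocytes, and Hist1h2ba and Hist1h2aa encode the testis forms of H2B and H2A. None of the 3 had a peak, a footprint or a base with a false discovery rate under 0.05 in its windows in either replicate. Most of the sequence there is unique, as 100% of the 36-base words within 500 bp of the start of Hist1h1t occur once in the genome, 96.3% at Hist1h2aa and 83.5% at Hist1h2ba. The Hist1h1t promoter printed above holds the H1 box, a CCAAT box and a GC box, as that of Hist1h1e does. Of 6 germ cell markers outside the set Dazl alone was open, at 9.56 and 7.48, and Prm1, Prm2 and Tnp1 had no peak.

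The last 5 lie in repeated sequence. Hist1h2bq, Hist1h2ao, Hist1h2ap and Hist1h2br had no 36-base word that occurs once, and at Hist2h3c1 the share was 3.73%. Its copy Hist2h3c2 had the same share and yet a weak peak, at 0.738 and 1.01. Hist1h4m and Hist1h4n, the lowest H4 genes, had 4.15% and 3.32%. The sources used here do not say how reads that match several places were treated. An absent or weak peak at these genes cannot be read as closed chromatin. Over the whole set 57 genes had under 90% of words found once and 18 under 50%. The 10 genes at 90% or more were open in 7 cases with a median signal of 3.64, and the other 57 in 46 cases with 2.75. Low shares did not mean a low signal throughout, since Hist2h2aa2, with 27.8%, had the highest signal outside H4.

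**Figure D3:**
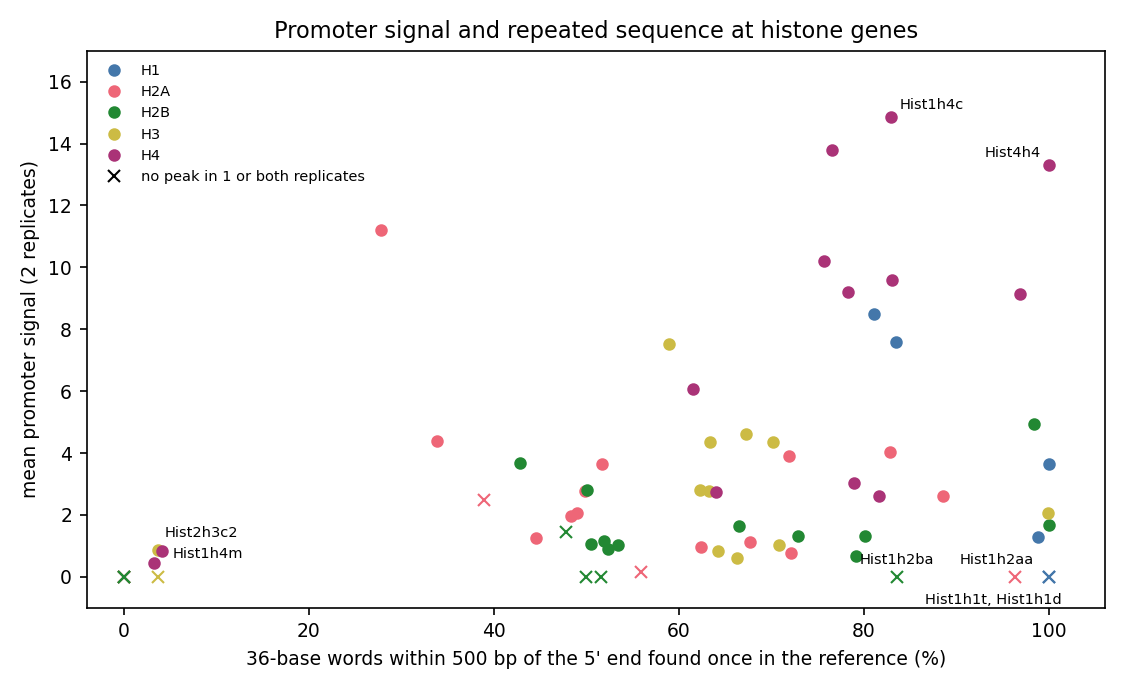
Mean promoter signal of both replicates (vertical axis) against the share of 36-base words near the 5' end that occur once in the reference (horizontal axis, %) for the 67 histone genes, coloured by class. Crosses are genes without a peak in 1 or both replicates. The genes at 0% have no peak, and the germ cell genes have none at 83.5% to 100%.

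Promoters were open along each cluster, with high and low genes next to each other. The Hist1 genes fall into a block of 23 genes over 327 kb and a block of 31 genes over 403 kb. In the first 16 of 23 genes (69.6%) were open and in the second 25 of 31 (80.6%), beside 67.4% of all protein-coding genes. The share of the first block was thus close to that of all genes. Their medians among open genes were 1.85 and 1.49 in the first block and 3.15 and 2.11 in the second. Hist2 had 9 of 10 genes open over 49.9 kb, with medians of 4.30 and 3.53, Hist3 had 2 of 2, and Hist4h4 was open. Within Hist1 the H4 genes had medians of 6.38 and 5.78, close to the 6.28 and 4.94 of the H1 genes, all of which lie there. H3 genes of Hist1 had 3.47 and 2.08, H2A genes 1.88 and 1.43, and H2B genes 1.49 and 1.38. The 4 H2A genes of Hist2 had medians of 4.52 and 3.77, higher in each replicate than those of Hist1.

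Peaks of the second Hist1 block and of Hist2 sat mainly at the histone genes themselves. In the second block 86.0% of the summed peak signal in replicate 1 and 86.3% in replicate 2 lay at members, and in Hist2 97.7% and 98.5%. In the first block the shares were 38.1% and 40.1%, and 28 and 27 peaks lay away from any protein-coding promoter, beside 20 and 14 in the second block. Each of these blocks has a long stretch without histone genes, and the cause of the difference was not tested. Of 10 other protein-coding genes inside the blocks 6 were open, with medians of 1.74 and 1.68. The highest were Trim17 (4.44 and 3.65, from the peak also counted for Hist3h2a), Zfp184 (4.21 and 2.73) and Pom121l2 (1.96 and 1.90). Trim38, Slc17a1 and Slc17a2 were among the 4 without a peak.

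**Figure D4:**
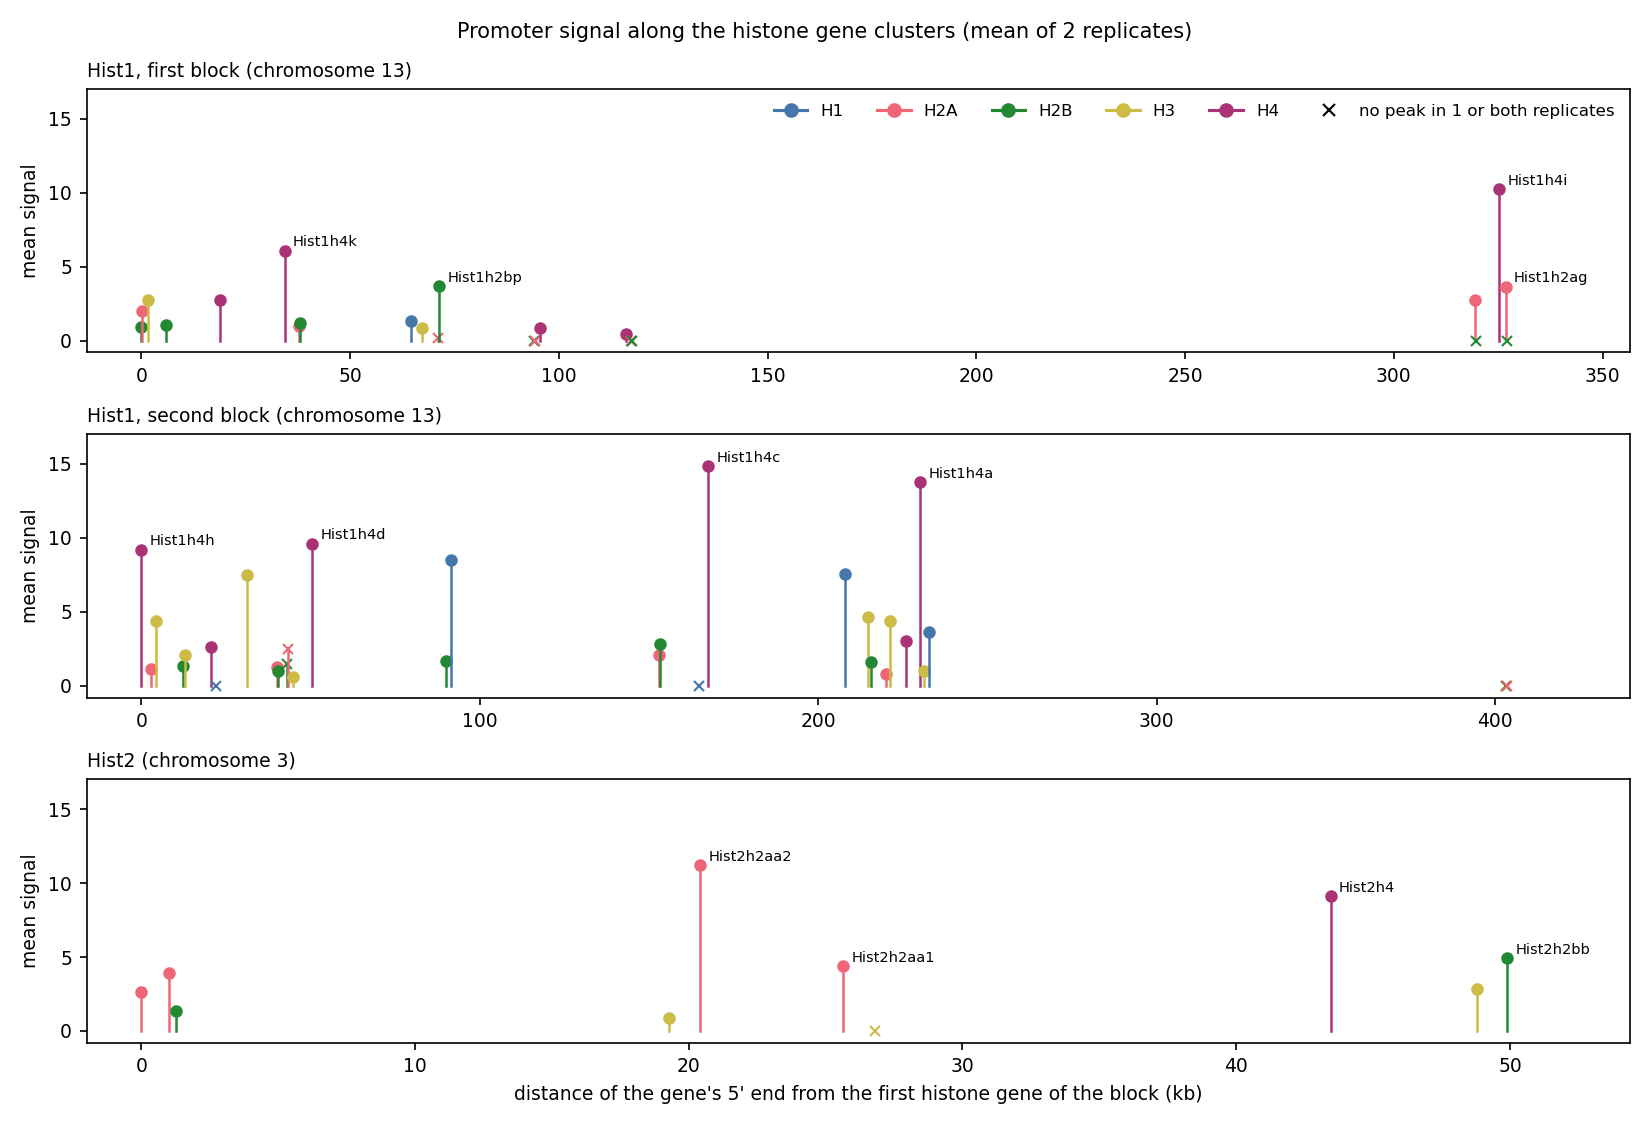
Mean promoter signal of both replicates (vertical axis) along the 2 blocks of Hist1 and along Hist2, by distance in kb of the 5' end from the first histone gene of the block. Stems are coloured by class, crosses are genes without a peak in 1 or both replicates, and the 4 highest genes of each block are named. High H4 genes such as Hist1h4c and Hist1h4a stand beside genes of low signal.

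Peaks lay close to the starts. The middle of the highest peak had a median position of -40.5 bp from the start in replicate 1 and -32.5 bp in replicate 2, minus meaning upstream, and 44 and 45 of the 53 open genes had it within 200 bp. In H4 genes it lay upstream of the start in 11 of 13 cases in each replicate. Positions of peaks and footprints depend on the annotated starts, which in 11 of the 67 genes are the first base of the start codon. RefSeq starts lay at -76 bp from those used here for Hist1h4b and at -48 bp for Hist1h4k. For Hist1h4i and Hist1h4m both annotations gave the same start. Footprints were found at 57 of the 67 genes in each replicate, beside 66.2% of all protein-coding genes. Coverage was taken as the share of bases in footprints in bins of 20 bp, over all genes of a set. In open H4 genes it was highest around 50 bp before the 5' end, with 57.7% in replicate 1 and 54.6% in replicate 2. Over all open genes the highest coverage was 25.9% and 25.0%, around 10 bp before the 5' end. H1 genes reached 72.5% and 68.8% around 30 bp before it, with 4 genes, at the position of the TATAAA match of Hist1h1e.

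**Figure D5:**
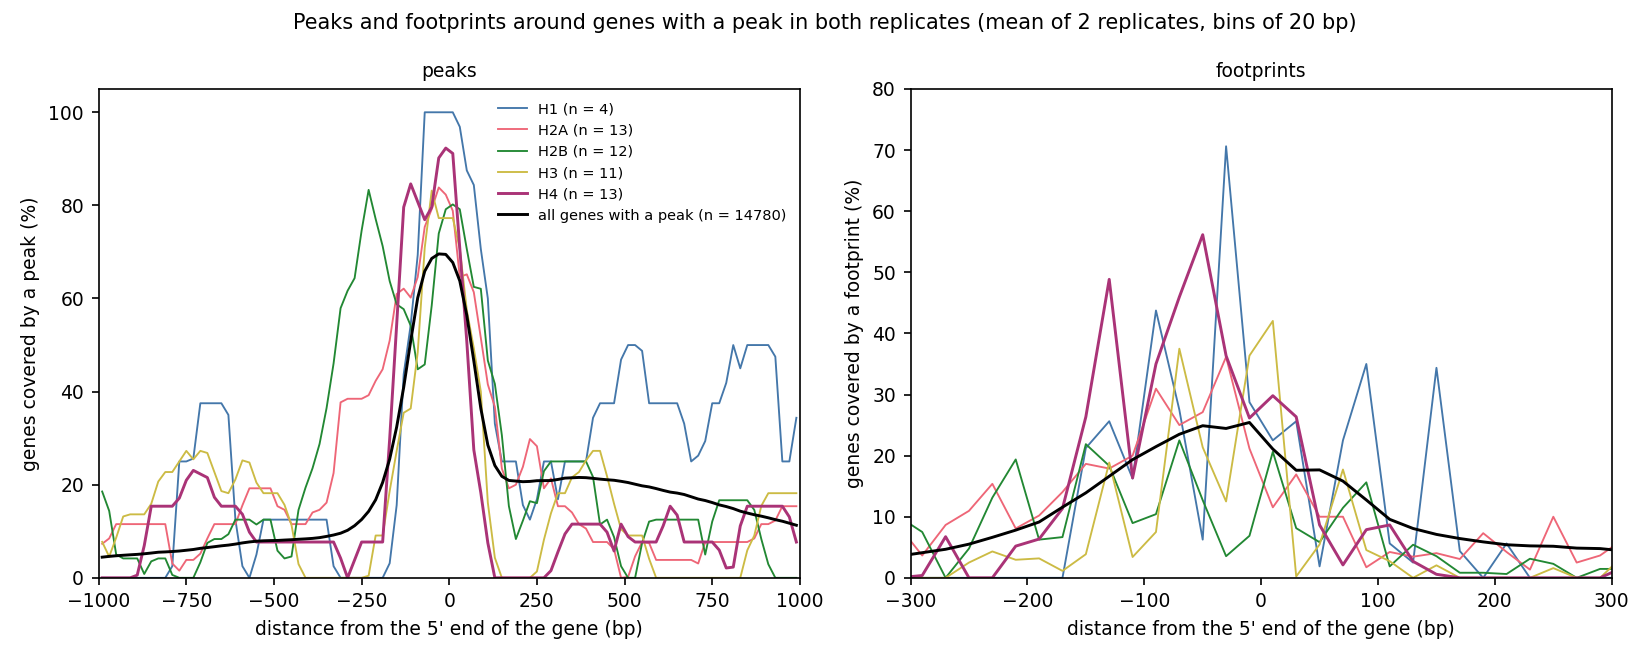
Coverage of open genes by peaks (left) or footprints (right), as the mean of both replicates. The vertical axis is the share of bases covered (%) in bins of 20 bp, over the genes of each set. The horizontal axis is the distance from the 5' end in bp. Coloured lines are the histone classes and the black line is all 14780 open genes. Footprint coverage of H4 genes is highest near 50 bp before the 5' end. Peak coverage of H2B genes, not all of which lie in head-to-head pairs, is highest around 230 bp before the 5' end in replicate 1 (83.3%). In replicate 2 the H2B maximum is around 30 bp after the 5' end (91.7%).

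The classes differed in the sequences they share. Matches were counted in the 250 bases before the 5' end, on both strands, in each of the 67 genes. Since starts of head-to-head pairs lie about that far apart, the H2A and H2B genes of a pair share most of these bases and are not separate cases. No motif searched is part of another, though matches of different motifs may overlap. A match is a description of these letters and not a bound site. CCAAT was found in 54 of the 67 genes, beside 36% of all protein-coding promoters, and in 18 of 18 H2A, 18 of 18 H2B, 9 of 12 H3, 5 of 6 H1 and 4 of 13 H4 genes. TATAAA was found in 34, beside 11.5%, and the octamer in 15, beside 1.45%, of which 7 encode H2A and 8 H2B. The E2F element was in 13 genes, beside 1.33%, of which 6 encode H2A and 7 H2B. It was in 5 of the 53 open genes. The other genes with it are Hist1h2bq, Hist1h2ao, Hist1h2ap and Hist1h2br, which have no unique 36-base word, and Hist1h2bk, Hist1h2bj, Hist1h2an and Hist1h2bf, which were open where a peak counted for each window it touched. The H1 box was in 8 genes, beside 5.66%, and in 4 of 6 H1 genes. The GC box was in 19 genes, beside 39%, with 10 of 13 in H4 and 4 of 6 in H1. The core of site II was in 14 genes, beside 7.69%, and 12 of these encode H4. Hist1h4a, the H4 gene without a match, was among the highest of the set.

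Of the motifs searched, the core of site II had the highest share of matches touched by a footprint when open genes of all classes were pooled. In open histone genes 13 of 14 matches (92.9%) were touched by a footprint in replicate 1 and 11 of 14 (78.6%) in replicate 2. Over all open genes the shares were 26.3% and 25.1% of 1638 matches, and over open genes above the median signal 31.3% and 31.1% of 951. GC boxes had 65.5% and 51.7% of 29 matches, beside 57.0% and 56.2% over all open genes. TATAAA had 48.1% and 33.3% of 27 matches, beside 14.4% and 13.3%. For CCAAT, the most frequent motif, 31.5% and 28.3% of 92 matches were touched, close to the 32.0% and 31.3% of all open genes. Of 9 octamers 1 was touched in replicate 1 and none in replicate 2, of 7 H1 boxes none and 1, and of 5 E2F elements 3 and 3. Counts this small allow no comparison with the 9.27% and 14.1% of octamers touched over all open genes. Most cores lie in H4 genes, so shares within open H4 genes are the closer comparison. There 91.7% and 75% of 12 cores were touched, and 85.7% and 78.6% of 14 GC boxes. TATAAA had 66.7% and 50% of 6 matches there, and CCAAT 60% and 60% of 5. Within H4 the core thus led in replicate 1 alone.

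Site II is shown for 7 H4 genes from high to low signal, with its core in capitals and the bases around it from the same assembly.
Hist1h4c (chr13:23698489-23698528, minus strand): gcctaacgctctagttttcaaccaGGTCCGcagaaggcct
Hist4h4 (chr6:136804448-136804487, minus strand): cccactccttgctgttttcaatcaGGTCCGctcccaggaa
Hist1h4i (chr13:22041393-22041432, minus strand): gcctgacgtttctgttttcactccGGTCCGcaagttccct
Hist2h4 (chr3:96263364-96263403, minus strand): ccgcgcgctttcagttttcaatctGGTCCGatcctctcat
Hist1h4b (chr13:23756919-23756958, plus strand): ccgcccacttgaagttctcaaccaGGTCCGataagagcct
Hist1h4f (chr13:23551699-23551738, minus strand): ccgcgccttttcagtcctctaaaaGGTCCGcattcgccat
Hist1h4m (chr13:21811675-21811714, plus strand): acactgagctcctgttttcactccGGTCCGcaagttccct

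In Hist1h4c the core began 50 bp before the 5' end and lay in a footprint from 23698478 to 23698522, 45 bases long and with the same edges in both replicates. In Hist4h4 the footprint over the core was 36 and 29 bases long, in Hist1h4i 44 and 43, and in Hist2h4 41 and 22. Hist1h4b, at a signal under the median of open genes, had footprints of 34 and 38 bases there, and Hist1h4f had 7 and 10, reaching the edge of the core. Of the 12 H4 genes with a core 9 had it touched by a footprint in each replicate. Hist1h4j and Hist1h4m had one in replicate 1 alone, of 11 and 29 bases, and Hist1h4n had none. Footprints over these cores were picked for touching a site, which longer ones do more readily, so all footprints of the genome are an unlike set. The footprints over these cores had median lengths of 32 and 33 bases, and all footprints had medians of 11 and 10. In replicate 1 7 of them, and in replicate 2 5, were at least 30 bases long, as were 6.54% and 5.33% of all footprints. Such long footprints lay at H4 promoters above the median of open genes and, at Hist1h4b and Hist1h4k, below it. Hist1h4h, above that median in each replicate, had footprints of only 9 and 12 bases at its core.

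In the printed promoters the 2 CCAAT boxes of Hist1h4c were touched by footprints in both replicates. The TATAAA match of Hist1h1e, 27 bp before the 5' end, and the GC boxes on either side of it were touched in both replicates, while its H1 box and CCAAT box were touched in neither. Of the 4 CCAAT boxes of Hist1h3e the one 70 bp before the 5' end was touched in both replicates. Between Hist2h2ac and Hist2h2be the TATAAA match on the side of Hist2h2ac was touched in both replicates, 2 of 3 CCAAT boxes in replicate 1 alone, and the octamer on the side of Hist2h2be in neither.

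Histone genes that are expressed outside DNA replication had higher medians. All 11 genes of that list were open, beside 67.4% of all protein-coding genes. Their medians were 13.4 and 11.5, beside 6.77 and 5.85 over all open genes. H2afv had 24.6 and 17.2 and H2afz 17.2 and 14.1, both of which encode forms of H2A.Z, and H2afj had 23.0 and 17.9. H3f3a and H3f3b, which encode H3.3, had 13.6 and 11.5 and 10.8 and 7.42. The lowest was H2afy2, a macroH2A gene, with 1.71 and 1.34, so the list overlapped the clustered genes. Genes for histone transcription and mRNA 3' end formation were open in 22 of 23 cases, with medians of 13.3 and 10.4. The highest were Ccne1 (24.7 and 18.9), the cyclin that activates Cdk2, Nfya (24.4 and 18.5), a subunit of the CCAAT-binding factor, and Lsm11 (20.8 and 19.4), of the U7 snRNP that trims histone mRNAs. Hinfp had 15.9 and 12.6, Slbp, the stem-loop binding protein, 13.7 and 9.41, and Pou2f1 16.5 and 17.5. Npat had no peak by the closest start, and all 23 genes were open where a peak counted for each window it touched.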

How the data were processed

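Heart tissue was profiled by DNase-seq in 2 biological replicates of 1 group. Per the submitters' processing notes, peaks, false discovery rates and footprints were made per replicate from its filtered mm10 alignment, while the sources used here name no caller or version. The authors scaled the deposited peak signal by read depth in a way not stated further. The deposited FDR lists hold a q-value for each run of bases cut by DNase I, where it is under 0.05. Footprint positions were used as the authors gave them. The larger of 2 deposited peak sets was the main set. How reads of the CAST parent were mapped to this C57BL/6J reference is not given in the sources used here.

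Starts came from GENCODE M21, and 27 protein-coding gene IDs repeat a symbol. Sequences came from GRCm38.p6. RefSeq listed 62 of the 67 genes, and its table was used to check starts only. Per class, the 3 highest and 3 lowest open genes are named, with every gene seen in 1 replicate or neither, and of each list the 3 highest and up to 3 without a peak. Hist1h4 genes, Hist1h3a and further list genes were named after their values were seen. The set, the lists and the motifs were chosen with earlier results of these data known. A motif counted as touched where 1 base lay in a footprint. Assignment, motif search and word counts were tested on simulated data. Tools were matplotlib 3.10.9, numba 0.67.0, numpy 2.4.6, pandas 2.3.3, Python 3.11.15 and scipy 1.17.1. Alternatives changed the peak set, windows, assignment, footprint length and replicates. Reads, alleles and RNA were not analysed here.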

Additional observations from a re-analysis of the deposited data

How the results depend on the processing

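The counts of open histone genes, overall and for each of the 5 classes, stayed within 1.5 times under every peak set, window, assignment and replicate tried. Even with every gene open no count could have risen past that bound, so only a fall could have crossed it. The lowest count was 44 with the upper 50% of peaks by signal, beside 60.7% of all protein-coding genes. The highest was 58, where a peak counted for each window it touched, beside 68.8% of all protein-coding genes. It was also 58 where a base with FDR under 0.05 was required, beside 69.4%. Over all 67 genes, with 0 where there was no peak, the median of the replicates' mean signal was 1.98. It was 2.77 when a peak counted for each window it touched and 2.38 with summed peaks, and each replicate alone gave 1.67 to 2.04. The H4 median of 9.13 was the same under each alternative peak set, window and assignment, and 9.60 with summed peaks. In each replicate alone it was 6.99 to 10.3, and the spread between replicates comes from these same values, so it cannot judge that shift. With genes without a peak at 0, the H4 median was 3.71 times that of the next class, H1. Over open genes alone, an alternative added after seeing the data, the ratio was 1.63, with 1.65 and 1.42 in replicates 1 and 2, since 2 of 6 H1 genes had no peak. The first ratio was 2.57 with each touched window, 3.26 with windows of 2 kb and, also added later, with start codons, 3.19 with summed peaks, and 3.17 to 3.79 in each replicate alone. Footprints of at least 15 bp lay at 32 genes in place of 57, and the share of all protein-coding genes at that length was not counted. A GC box was in 28.4% of genes, and in 50.7% with 500 bases. Requiring the whole match inside a footprint moved the mean share of matches from 85.7% to 60.7% for site II, from 40.7% to 25.9% for TATAAA, from 29.9% to 16.8% for CCAAT, from 60% to 30% for the E2F element and from 58.6% to 29.3% for the GC box. The causes of these shifts were not tested, beyond the fewer bases or footprints that each setting counts. No paired analysis was possible because there is 1 group. With 2 replicates and unknown depth, a weak or absent peak may be missed, and repeated sequence limits 18 genes most.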
